A study of Homo sapiens with 6 samples.

Results

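Proteasome subunit genes were examined in U2932, an established human line grown from a lymphoma of large B cells. They were the rows of the deposited table named PSMA to PSMG with a number, or POMP, with pseudogenes left out: 47 of 34675 rows, which carry 46 gene symbols because PSMA2 names 2 rows. By role these were 9 rows for the alpha rings and 7 for the beta rings of the core particle, 1 immunoproteasome subunit (PSMB10), 6 regulatory ATPases, 11 non-ATPase regulatory subunits, 5 activator and inhibitor genes and 8 assembly genes. PSMC3IP, whose name extends that of a subunit, encodes a recombination protein and is not a member. The immunoproteasome genes PSMB8 and PSMB9 and the thymic PSMB11 had no member row under these names, so they were not analysed here.

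The cells had been infected with a short hairpin RNA against PRDM11, a PR domain family gene (3 samples), or with a scrambled hairpin in a pLKO-puro vector (3 samples), and both groups were kept in puromycin for 3 days. All samples are of 1 cell line and 1 hairpin per group, and the labels do not say that they came from separate cultures, so p-values cover only the spread among these 6 samples, and that spread may be technical. The comparison asks which genes change when PRDM11 is depleted. The table names its conditions only A and B and no label ties either to a hairpin, so every difference is condition A relative to condition B. The B cell markers CD79A, CD79B, MS4A1, PAX5 and CD22 were all abundant, MS4A1 with means of 84146 (condition A) and 71390 (condition B) normalised reads. In the authors' deposited table CD79B was higher in condition A, with a log2 ratio of 0.42 (DESeq adjusted p = 0.0226). Means of the T cell markers CD3E and CD3G summed to 15.7 and 8.48, those of 4 myeloid markers to 66.2 and 53.7 and those of 3 stromal markers to 57.1 and 69.8.

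The proteasome degrades proteins tagged with ubiquitin. Its barrel-shaped core is built of stacked rings of alpha and beta subunits, and the beta subunits PSMB5, PSMB6 and PSMB7 carry the proteolytic sites. A regulatory particle with a ring of ATPases (PSMC genes) and a base and lid of non-ATPase subunits (PSMD genes) binds, unfolds and feeds in the substrate. Lymphoid cells also express PSMB8, PSMB9 and PSMB10, which take the places of PSMB5, PSMB6 and PSMB7 and change which peptides are made for antigen presentation. Transcription of the subunit genes is known to be raised as a set by the factor NFE2L1 when proteasome activity is limiting, through antioxidant response elements in their promoters.

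Promoter windows of 4 members are shown because they hold the same antioxidant response element core and their genes differed between the conditions by log2 ratios of opposite sign or near 0. They are RefSeq sequences of build GRCh38.p14, the 250 bases before the annotated start, with the letters TGACNNNGC in capitals. These windows lie at chr14:24135944-24136193 on the plus strand for PSME1, at chr21:39183452-39183701 on the minus strand for PSMG1, at chr17:39980557-39980806 on the plus strand for PSMD3, and at chr17:38752491-38752740 on the plus strand for PSMB3.
PSME1: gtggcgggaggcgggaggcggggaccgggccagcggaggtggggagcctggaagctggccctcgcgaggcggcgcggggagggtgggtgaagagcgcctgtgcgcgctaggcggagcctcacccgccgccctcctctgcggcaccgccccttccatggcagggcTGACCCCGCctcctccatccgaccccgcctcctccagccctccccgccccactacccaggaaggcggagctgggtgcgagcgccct
PSMG1: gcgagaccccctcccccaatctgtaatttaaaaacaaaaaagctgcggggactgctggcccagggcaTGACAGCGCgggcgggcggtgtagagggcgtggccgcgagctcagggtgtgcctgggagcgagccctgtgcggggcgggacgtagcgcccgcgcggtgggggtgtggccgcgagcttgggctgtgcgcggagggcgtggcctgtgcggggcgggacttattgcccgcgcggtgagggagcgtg
PSMD3: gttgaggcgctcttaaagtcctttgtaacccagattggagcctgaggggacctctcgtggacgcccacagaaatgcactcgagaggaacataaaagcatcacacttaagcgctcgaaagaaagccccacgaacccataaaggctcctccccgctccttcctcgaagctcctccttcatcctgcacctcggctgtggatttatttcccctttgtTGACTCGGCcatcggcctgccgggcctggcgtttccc
PSMB3: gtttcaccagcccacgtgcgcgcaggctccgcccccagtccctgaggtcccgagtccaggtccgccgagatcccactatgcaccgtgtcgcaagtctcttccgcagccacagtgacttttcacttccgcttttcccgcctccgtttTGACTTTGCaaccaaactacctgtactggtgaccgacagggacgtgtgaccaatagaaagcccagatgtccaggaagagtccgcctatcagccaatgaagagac

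No proteasome gene was called in the authors' deposited table: 0 of 47 had a DESeq adjusted p under 0.05, where 2.54% of all 34675 rows were called (0.966% higher and 1.57% lower in condition A). Among the 13565 rows with a mean of at least 50 normalised reads 6.04% were called, 2.18% higher and 3.86% lower. The smallest adjusted p, 0.307, was that of PSMB2. At an unadjusted p under 0.05 there were 6 members, PSMB2, PSMD11 and PSME3 with a higher and PSMC6, PSME1 and PSMG1 with a lower mean in condition A, against 20.8% of the rows with a mean of at least 50 (8.91% higher, 11.9% lower). The log2 ratios of the 46 members at that level ran from -0.38 to 0.34 with a median of -0.03, and 20 were above and 26 below 0. None exceeded 0.5 in size, as 4.24% of the rows with a mean of 500 to 25000 did. The median size of the log2 ratio was 0.13 among the members and 0.14 among those rows.

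The authors deposited means only, and whole reads of the 3 libraries behind each mean were recovered from their digits for 36 of these 46 members. The other 10 members, whose condition A mean lay above 10000, are given by their deposited means. Across libraries the recovered reads of rows solved in all 6 came to between 18132989 and 28146447. A limma test of the recovered reads over 12618 rows called 1 of the 36 members, PSME1, where it called 11.7% of all rows tested. At an unadjusted p under 0.05 it gave 5 members, PSMC6, PSME1, PSMG1, PSMD14 and PSMD10, all lower in condition A, against 30.2% of all rows tested. PSMB2, PSMD11 and PSME3, higher in condition A at that level in the authors' deposited table, were not among the members tested. Its 95% intervals included 0 for 31 members and lay wholly within a log2 ratio of -0.5 to 0.5 for 30. No interval reached 1 in size, the widest bounds being -0.71 for PSMC6 and 0.54 for PSMF1. Reads of 12567 genes were simulated with 1 spread for all, the median of those fitted, and independent noise. On these the same test found 94% of 1.5-fold changes and 16.4% of the smallest changes simulated, which were below 1.5-fold. The spread (SD of log2 reads) fitted to the members themselves ran from 0.05 for PSMD5 to 0.25 for PSMA1. The simulated shares therefore need not hold for each member.

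**Figure D1:**
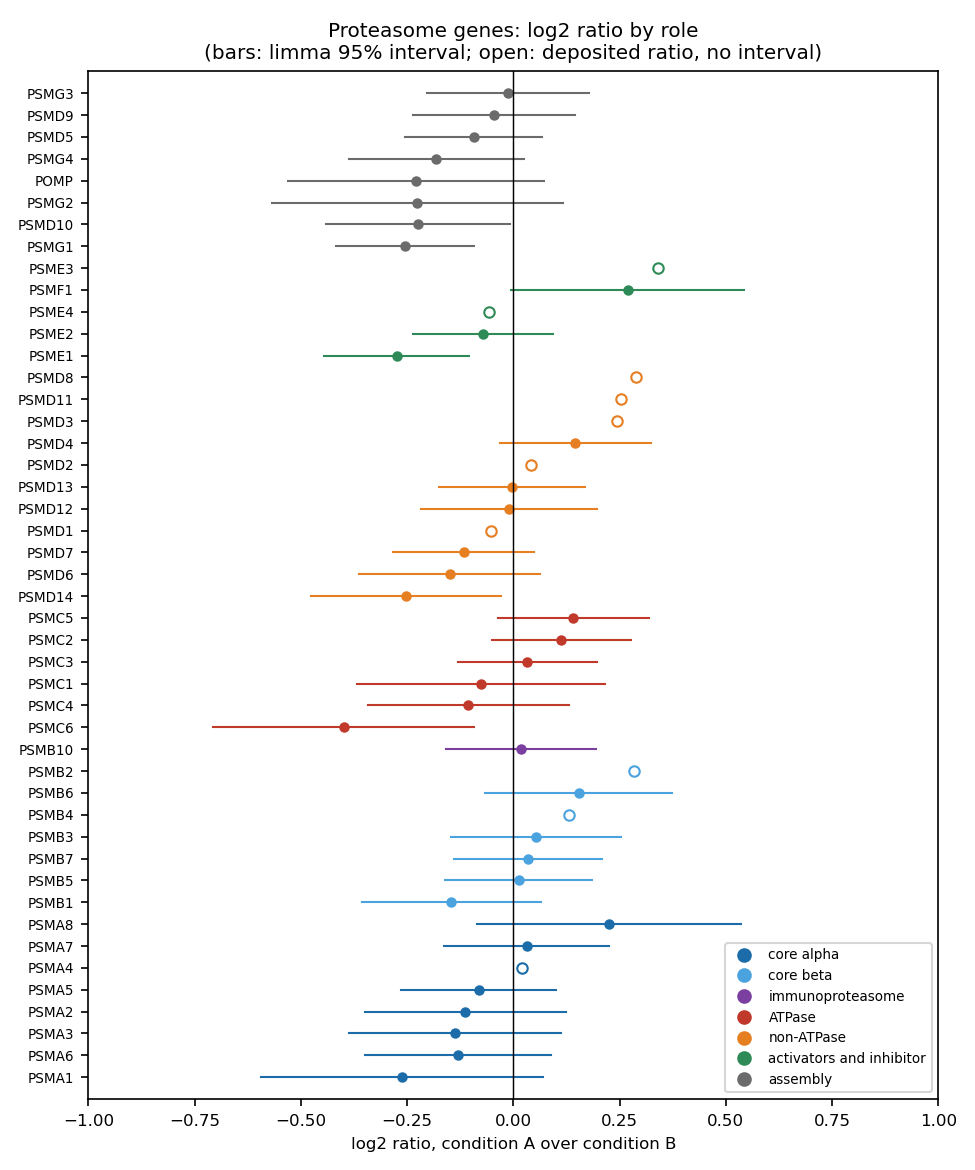
The log2 ratio of condition A over condition B (x axis) is plotted for the 46 proteasome genes with a mean of at least 50, coloured by role. Filled points with bars are limma estimates from 3 against 3 libraries with 95% intervals, and open circles are deposited ratios of the 10 genes without recovered libraries. All points lie between -0.40 and 0.34, and all 8 assembly genes lie below 0.

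The alpha rings form the gate of the core. Their 8 rows with a mean of at least 50 had a median log2 ratio of -0.09, 3 above and 5 below 0. PSMA1 (ENSG00000129084, hg19 chromosome 11, coding intervals 14526741 to 14632532) held 2853, 2382 and 1769 normalised reads in the libraries of condition A against 2685, 2757 and 2797 in condition B. The third library of condition A was the lowest of the 6, and the groups overlapped (deposited log2 ratio -0.23, DESeq adjusted p = 1). PSMA8, which encodes the testis form of an alpha subunit related to PSMA7, was clearly present. It held 2303, 2038 and 1594 in condition A against 1470, 1741 and 1832 in condition B, with overlapping groups (deposited log2 ratio 0.23, DESeq adjusted p = 0.817). Per kilobase of coding length PSMA8 stood at 2197 normalised reads, against 11109 for PSMA7. Limma called PSMA8 higher in condition A (adjusted p = 0.0413) without the third library of condition A, and not with all libraries (adjusted p = 0.3). The log2 ratios of PSMA3, PSMA4, PSMA5 and PSMA7 were -0.13, 0.02, -0.08 and 0.03, each with a DESeq adjusted p of 1.

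PSMA2 and PSMA6 need care. The second row named PSMA2 (ENSG00000256646) spans hg19 chromosome 7 from 42957176 to 42971757 and so encloses the coding intervals of the first (ENSG00000106588, 42961456 to 42970754). The first row averaged 730.6 normalised reads and the second 4.63, and how reads of shared exons were assigned is not known, so both values are uncertain. PSMA6 averaged 615 and the row of its pseudogene PSMA6P1 814.8, and reads may be split between such near-identical copies.

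The beta rings had a median log2 ratio of 0.05, with 6 of 7 genes above 0. PSMB2 (ENSG00000126067, hg19 chromosome 1, 36068871 to 36107033) had the largest of these, with deposited means of 19813 (condition A) and 16278 (condition B). Its log2 ratio in the authors' deposited table was 0.28, implied standard error 0.12 (unadjusted p = 0.0193, DESeq adjusted p = 0.307). Its libraries of condition B held 17959, 15522 and 15352. At the other end PSMB1, a structural beta subunit, held 5680, 5206 and 4534 in condition A and 6021, 5434 and 5552 in condition B, which overlap (log2 ratio -0.14). PSMB3 and PSMB4 had log2 ratios of 0.05 and 0.13, each with a DESeq adjusted p of 1.

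Values of the proteolytic subunits PSMB5 and PSMB7 were close in both conditions, and those of PSMB6 less so. PSMB5, the chymotrypsin-like site, held 4557, 4403 and 4133 normalised reads in condition A against 4619, 4218 and 4151 in condition B. The limma log2 ratio was 0.01 (95% interval -0.16 to 0.19). PSMB6, the caspase-like site, held 5899, 5701 and 5431 in condition A and 5923, 4664 and 4806 in condition B. The first library of condition B lay above all of condition A and the other 2 below it (deposited log2 ratio 0.15, DESeq adjusted p = 0.957). Limma gave PSMB6 a log2 ratio of 0.15 (95% interval -0.07 to 0.37). PSMB7, the trypsin-like site, held 8659, 8677 and 8831 against 9375, 7999 and 8251 (limma log2 ratio 0.03, 95% interval -0.14 to 0.21). For both PSMB5 and PSMB7 the groups overlapped and the sign of the log2 ratio changed with 1 library left out.

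PSMB10, the immunoproteasome subunit that replaces PSMB7, also overlapped between the conditions. It held 1184, 1209 and 1236 normalised reads in condition A against 1263, 1192 and 1133 in condition B (limma log2 ratio 0.02, 95% interval -0.16 to 0.19). Per kilobase of coding length PSMB10 amounted to 15.4%, 15.7% and 15.8% of PSMB7 in the libraries of condition A against 15.2%, 16.8% and 15.5% in condition B. The means were 15.7% ± 0.192 (SD, n = 3) and 15.9% ± 0.859 (SD, n = 3), with p = 0.9 in an exact two-sided permutation test over libraries, for which 0.1 is the smallest possible p. This was the 1 pair of replacing and replaced subunits that could be compared, as PSMB8 and PSMB9 had no member row.

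The ATPase genes had a median log2 ratio of -0.02, with 3 above and 3 below 0. PSMC6 (ENSG00000100519, hg19 chromosome 14, 53173896 to 53194332) had the lowest log2 ratio of all members. It held 1158, 930.4 and 767.8 normalised reads in condition A against 1188, 1216 and 1316 in condition B, so that every library of condition A lay below those of condition B. The deposited log2 ratio was -0.38 (implied standard error 0.18, DESeq adjusted p = 0.432), and limma gave -0.40 (95% interval -0.71 to -0.09, adjusted p = 0.087). PSMC5 had the highest log2 ratio of the ring. It held 7588, 7614 and 7534 in condition A and 7600, 6457 and 6624 in condition B. The first library of condition B lay among those of condition A and the other 2 below (deposited log2 ratio 0.14, DESeq adjusted p = 1). The other ATPases, PSMC1, PSMC2, PSMC3 and PSMC4, had log2 ratios of -0.07, 0.11, 0.03 and -0.11.

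Of the 11 non-ATPase subunits 5 had a log2 ratio above and 6 below 0, with a median of 0.00. PSMD14, the lid's deubiquitinating enzyme, held 4617, 3863 and 3588 in condition A and 4593, 4695 and 5021 in condition B, so the first library of condition A exceeded only the first of condition B (deposited log2 ratio -0.25, DESeq adjusted p = 0.574). PSMD8 had deposited means of 11737 in condition A and 9608 in condition B (log2 ratio 0.29, DESeq adjusted p = 0.834). The scaffold subunits PSMD1 and PSMD2, which bind ubiquitin carriers and substrates, had deposited log2 ratios of -0.05 and 0.04. PSMD3, PSMD4, PSMD6 and PSMD11 had 0.24, 0.14, -0.14 and 0.25. PSMD12 and PSMD13, of the lid, had -0.01 and 0.00, the nearest to 0 among these 11. Of the 6 genes of this group with recovered libraries PSMD7 alone had groups that did not overlap, with 5472, 5173 and 4780 in condition A against 5564, 5560 and 5579 in condition B (limma log2 ratio -0.12, 95% interval -0.28 to 0.05).

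Activators cap the core in place of the regulatory particle. PSME1 and PSME2 encode the alternating subunits of the interferon-inducible activator and lie close to each other on hg19 chromosome 14, with coding intervals from 24605472 to 24608022 and from 24612621 to 24615790. PSME1 held 5965, 5810 and 5176 normalised reads in condition A against 6853, 6899 and 6716 in condition B, with every library of condition A below those of condition B. Its deposited log2 ratio was -0.27 with an implied standard error of 0.12 (unadjusted p = 0.0251, DESeq adjusted p = 0.357), and limma gave -0.27 (95% interval -0.45 to -0.10, adjusted p = 0.0475). The limma call was lost on rescaling the libraries to the median of ratios (adjusted p = 0.0527), with no filter on low rows (0.092) and without any 1 library other than the first of condition A (0.0658 to 0.172). PSME2 held 3306, 3469 and 3456 in condition A and 3806, 3454 and 3498 in condition B, and its groups overlapped (limma log2 ratio -0.07, 95% interval -0.24 to 0.09).

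PSME3, the nuclear activator, had the highest log2 ratio among members above the minimum mean of 50 (the sparse second PSMA2 row had 1.15). Its deposited means were 23784 (condition A) and 18793 (condition B), and the log2 ratio was 0.34, implied standard error 0.17 (unadjusted p = 0.0435, DESeq adjusted p = 0.484). PSME4, the activator known from spermatogenesis, had -0.06 (DESeq adjusted p = 1). PSMF1, which inhibits the core in vitro, held 8455, 9063 and 11169 in condition A and 9125, 7287 and 7347 in condition B, with overlapping groups (deposited log2 ratio 0.27, DESeq adjusted p = 0.901).

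The 8 assembly genes were the 1 role group with every log2 ratio below 0. These ran from -0.26 to -0.01 with a median of -0.20, and 0 of 8 were called in the authors' deposited table or by limma with all libraries. Among all 13565 rows with a mean of at least 50, 6832 had a log2 ratio below 0. In 7 of the 8 assembly genes the third library of condition A was the lowest of its condition. PSMG1, which pairs with PSMG2 to build the alpha ring, held 3358, 3351 and 3246 in condition A and 4172, 3958 and 3761 in condition B. The groups did not overlap (deposited log2 ratio -0.26, DESeq adjusted p = 0.379, implied standard error 0.12), and limma gave an adjusted p of 0.0506. PSMG3, the highest, held 1229, 1198 and 1078 against 1218, 1121 and 1194 (log2 ratio -0.01). POMP, which escorts the beta subunits and is consumed as the core matures, held 6282, 5314 and 4111 in condition A and 6261, 5834 and 6053 in condition B. The first library of condition A was the highest of the 6 and the third the lowest. The ATPase chaperone PSMD10 had a deposited log2 ratio of -0.22 and PSMD5 of -0.09, and in both the libraries of the conditions did not overlap. PSMG2, PSMG4 and PSMD9 had -0.21, -0.19 and -0.05. Counted with the regulatory particle, as their names have it, PSMD5, PSMD9 and PSMD10 moved the assembly median to -0.21.

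Over all 36 recovered members the libraries did not overlap in 7, or 19.4%, where 34.4% of the 12618 recovered rows with a mean of at least 50 did not overlap. In these 7 genes, PSMC6, PSMD7, PSME1, PSMG1, PSMG4, PSMD5 and PSMD10, condition A was the lower. The share of these members with condition A below condition B was thus 19.4%, near the 18.7% of the recovered rows. Of the 36, 0 lay wholly above, as 15.7% of the recovered rows did. Members with a condition A mean above 10000 are missing from these counts. Among the missing are PSMB2, PSMD11 and PSME3, the members with a higher condition A mean at a deposited unadjusted p under 0.05. Of the missing members only PSMD1 and PSME4 had a deposited log2 ratio below 0.

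**Figure D2:**
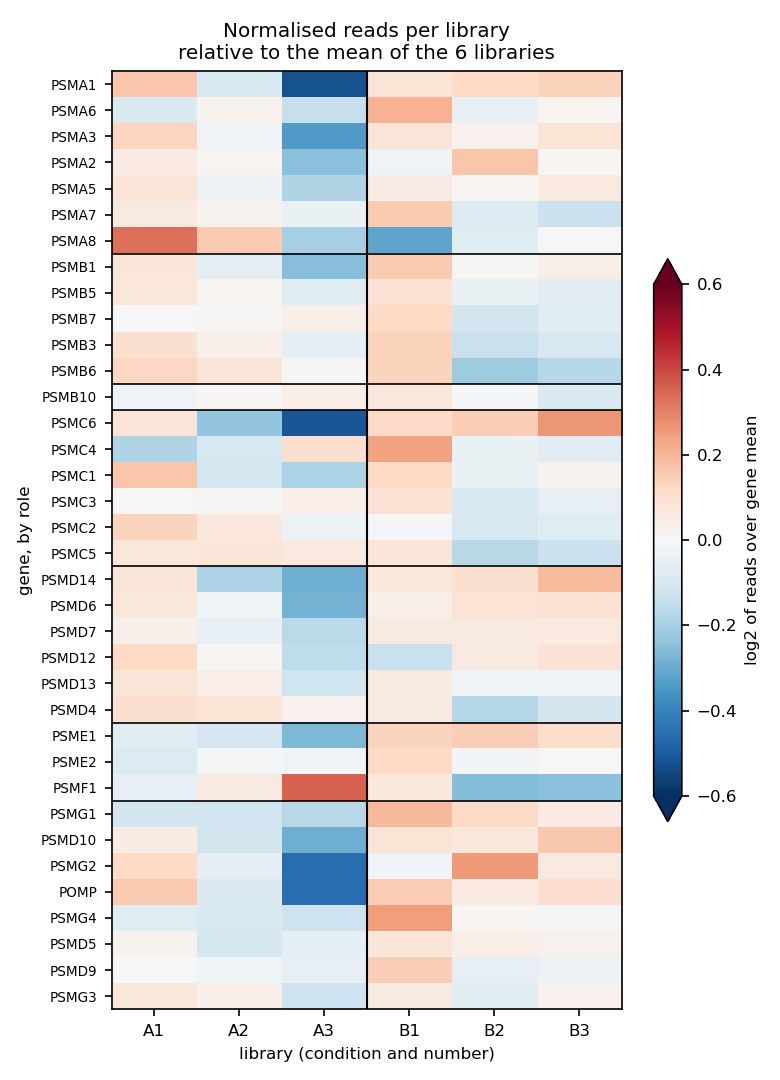
Colour gives the log2 of a gene's normalised reads over its mean of the 6 libraries, for the 36 proteasome genes with recovered reads (rows, grouped by role) in libraries A1 to A3 and B1 to B3 (columns). Library A3 is the lowest of condition A in 29 of the 36 genes, and PSMF1 and PSMC4 are among the 5 in which it is the highest.

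Libraries of the same condition differed in a shared direction over many members. The third library of condition A was the lowest of its condition in 29 of 36 members, against 43.2% of all recovered rows (it was the highest in 42.4%), and the first library of condition B was the highest of its condition in 23, against 43.9%. Members differed between the highest and lowest library of a condition by up to 1.61-fold in condition A, for PSMA1, and up to 1.27-fold in condition B, for PSMB6. Across 35 members with a GENCODE 29 transcript, the log2 deviation of the third library of condition A from the mean of the other 2 had a correlation of 0.53 with GC content, and that of the first library of condition B 0.57. Both were 0.63 and 0.62 across 9983 genes. These are descriptions across genes of the same libraries, and genes are not independent replicates. The log2 ratio between the conditions had a correlation of 0.21 with GC content across the members. The part of GC content in the members' ratios was not tested.

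Leaving out both of these libraries, a choice made after seeing the data, narrowed the spread and raised the number of calls. Limma then called 12 of 36 members, where it called 33.2% of all rows. Of these, PSMA7, PSMA8, PSMB3, PSMB6, PSMC2, PSMC5, PSMD4 and PSMF1 were higher and PSMC6, PSMD14, PSME1 and PSMG1 lower in condition A. That is 8 higher and 4 lower, against 15.5% and 17.6% of all rows. The log2 ratio of PSMB6 was 0.29 (95% interval 0.18 to 0.41) and that of PSMF1 0.26 (0.15 to 0.37). Ratios of the means of the libraries kept lay between -0.28 and 0.29 for all 36. Of the 8 assembly genes 6 were then below 0. The libraries left out were picked because they stood apart, so these p-values are not independent of that choice.

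The calls also moved when 1 library was left out. Without the first library of condition A limma called 6 members, all lower (POMP, PSMA1, PSMC6, PSMD10, PSMD14 and PSME1), where 17% of rows were called. Without the third it called PSMA8 alone, higher, where 12.2% of rows were called. Leaving out the second library of condition A gave 0 members (2.74% of rows), as did leaving out the first, the second or the third of condition B (8.19%, 2.8% and 2.96%). With a pseudocount of 5 PSME1 was called (11.6% of rows), and 0 members were with no filter on low rows (4.57%) or after rescaling to the median of ratios (11.5%).

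**Figure D3:**
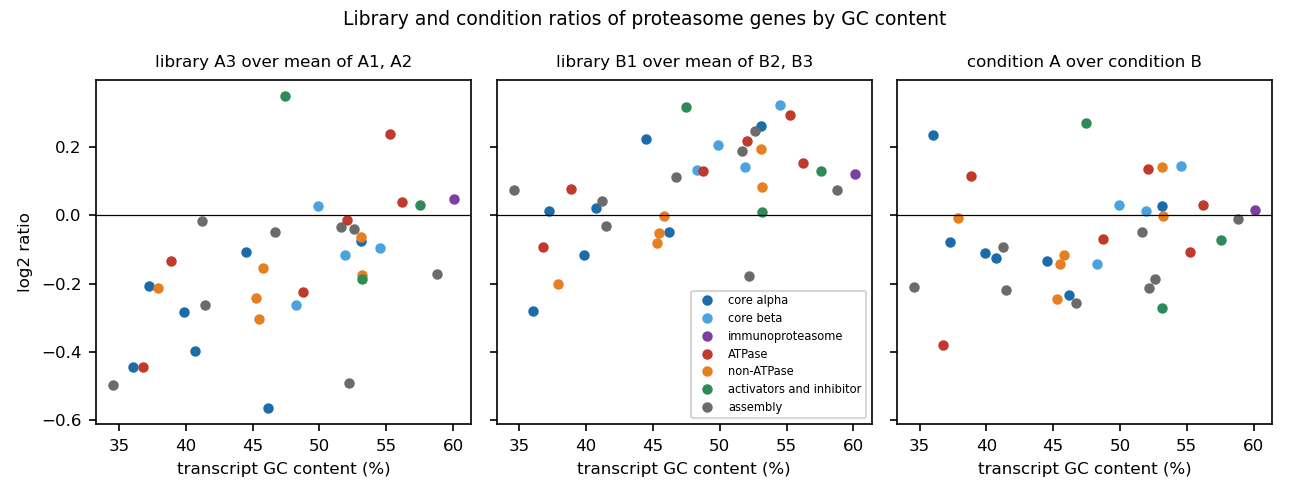
For 35 proteasome genes the GC content of the longest protein-coding transcript (x axis, percent) is set against the log2 ratio of library A3 over the mean of A1 and A2 (left), of library B1 over the mean of B2 and B3 (middle) and of condition A over condition B (right), coloured by role. The points of the left and middle panels rise with GC content (correlations 0.53 and 0.57), and those of the right panel rise less (0.21).

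The summed reads of the 36 recovered members overlapped between the conditions. They came to 162378, 155904 and 147966 normalised reads in condition A against 166497, 152992 and 155045 in condition B. Deposited means of all 47 rows, which include the 10 most abundant members, summed to 325388 (condition A) and 310468 (condition B), a log2 ratio of 0.07 with no test, beside 0.07 for the sum over all rows. The 12 recovered genes of the alpha and beta rings summed to 61647, 58440 and 53533 in condition A against 62460, 55871 and 56685 in condition B. Among 7412 other named genes with a mean of at least 500, the 5 whose 6 library values followed the summed core most closely were EMC7, SAP18, DNAJA4, PMVK and SPCS1, with Pearson correlations of 0.98, 0.98, 0.98, 0.98 and 0.97 over 6 libraries. Their deposited log2 ratios lay between -0.01 and 0.01. These 5 were picked as the highest correlations among 7412 genes over only 6 values. The summed core itself differed little between the conditions, so ratios near 0 followed from that choice and are no separate result.

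Subunits that stand in equal number in the particle differed widely in measured RNA level. Per kilobase of coding length, the beta ring genes ran from 4782 normalised reads for PSMB5 to 29926 for PSMB2, and the alpha ring genes from 635.4 for PSMA6 to 14714 for PSMA4 (PSMA2 is left out, as its first row has only 116 coding bases). The PSMA6 value is uncertain, as the row of its pseudogene PSMA6P1 held more reads. Among ATPases PSMC2 was at 6178, PSMC5 at 5907, PSMC3 at 5250 and PSMC4 at 4507, but PSMC6 at 889.5 and PSMC1 at 120.2. PSMC1 had 158.6 normalised reads in all, while the pseudogene rows PSMC1P1 and PSMC1P9 had 1116 and 160.3, so the PSMC1 value is uncertain. Altogether 26 rows of pseudogenes of 10 member genes were present, and only 10 of these rows had a mean of at least 50. Of the 26, 0 were called in the authors' deposited table, beside 2.54% of all rows and 6.04% of rows with a mean of at least 50. Assembly genes had the lowest median after PSMB10, 2238, with POMP at 13340. PSMB10 stood at 1429. On the length of the longest GENCODE 29 transcript the order changed, PSMB2 falling to rank 14 of 45 and PSMB4 standing first at 12473. The assembly median on that length was 819.8, below the 987.6 of PSMB10, and POMP stood at 3951.

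**Figure D4:**
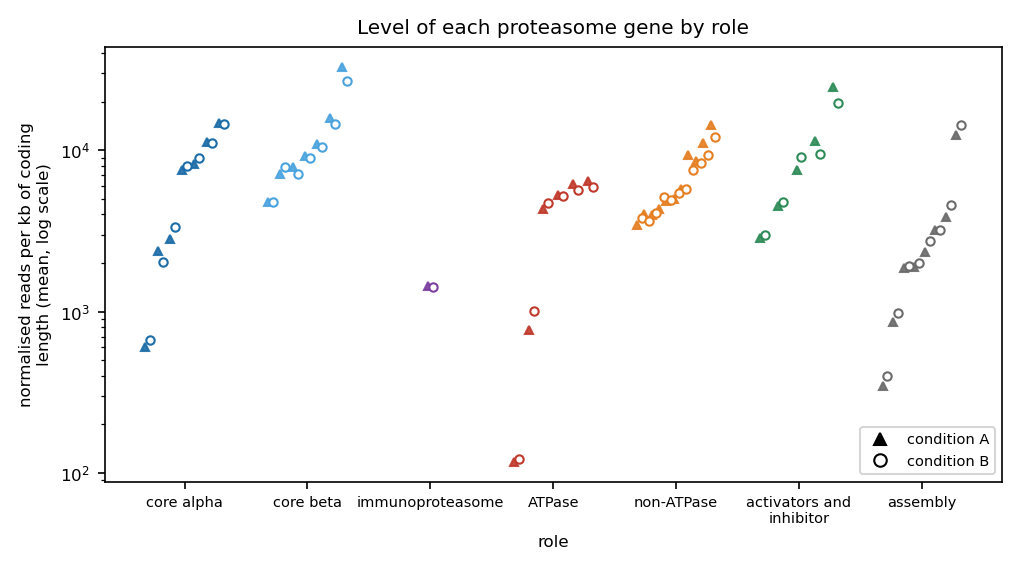
Each proteasome gene's mean level in condition A (triangles) and condition B (open circles) is given as normalised reads per kilobase of coding length on a log axis, grouped by role on the x axis. PSMB2 is the highest at about 29926 and PSMC1 the lowest at about 120.2 over both conditions, a spread far wider than any distance between the 2 conditions. The PSMC1 and PSMA6 values are uncertain, as rows of their pseudogenes held more reads.

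Genes that work with the proteasome were mostly not called either. Of 13 partners with a row 1 was higher and 0 lower in condition A in the authors' deposited table, and 4 had an unadjusted p under 0.05. The shares among all rows with a mean of at least 50, against which this and the next lists are to be read, were 6.04% called and 20.8% at an unadjusted p under 0.05. This was ZFAND2A, an arsenite- and heat-inducible gene whose product binds the regulatory particle, with mean normalised reads of 1455 (condition A) and 1082 (condition B). The log2 ratio was 0.43 (implied standard error 0.12, DESeq adjusted p = 0.0271). ADRM1, the ubiquitin receptor of the base, had 9002 and 6318 (log2 ratio 0.51, DESeq adjusted p = 0.392). None of the 12 genes of ubiquitin shuttles and the p97 unfoldase, and none of the 6 of ubiquitin and its activation, had a DESeq adjusted p under 0.05, although 1 and 0 of them had an unadjusted p under 0.05. The median log2 ratio of the shuttle and p97 list was 0.17.

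The regulators of subunit genes gave 0 calls among 11, with 2 at an unadjusted p under 0.05, beside the same 6.04% and 20.8% of rows. In the authors' deposited table NFE2L1, which raises proteasome genes as a set, had 11547 and 10136 normalised reads in conditions A and B (log2 ratio 0.19, DESeq adjusted p = 0.843), and NFE2L2, its relative in the oxidative stress response, 4705 and 4954 (log2 ratio -0.07, DESeq adjusted p = 1). Of the 11 genes with a row that induce the immunoproteasome or act with it 0 were called, with 1 at an unadjusted p under 0.05, beside the same shares. Only 9 of these 11 had a mean of at least 50. TAP2 and TAPBP had means of 17.1 and 0.931, at which a call is unlikely. How reads were assigned to these rows is not known, so both values are uncertain. The interferon-induced factor IRF1 had a deposited log2 ratio of 0.24 (DESeq adjusted p = 0.574), and NLRC5, the activator of MHC class I genes, -0.10 (DESeq adjusted p = 1).

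The antioxidant response element core TGACNNNGC, searched on both strands, was found in 14 of 48 RefSeq promoter windows of 300 bases for 40 member genes, or 29.2%, and in 13.3% of all 35116 windows. The 14 genes with a match had a median deposited log2 ratio of -0.06 (from -0.27 for PSME1 to 0.24 for PSMD3) and the 26 without -0.04. The CCAAT box, the letters CCAAT on both strands, was in 37.5% of the member windows and 34.6% of all windows. The median log2 ratio was 0.02 in the 18 genes with it and -0.06 in the 22 without. Counted from the annotated start, the printed matches begin at -86 in PSME1, -183 in PSMG1, -37 in PSMD3 and -104 in PSMB3. PSME1 and PSMG1 had deposited log2 ratios of -0.27 and -0.26, PSMB3 0.05 and PSMD3 0.24, the values by which these 4 were chosen for display.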

How the data were processed

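The submitters' processing notes list STAR, HTSeq 0.5.4p5, DESeq 1.14.0 and hg19 for these 6 samples. Which step each did, and the annotation and strand setting used, are not given in the sources at hand. Per the file headers the deposited means are a signal in normalised reads (counts divided by size factors). The authors' deposited fold divides B by A. Its deposited log2 is printed here with the sign turned, as A over B. The deposited p-value and adjusted p-value are the authors'. The deposited score of the hg19 track, per the file headers, was not used, only its coding intervals. Columns of values per sample left out numbered 0.

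Whole reads were recovered by an integer search on the digits of each mean, up to 10000 in condition A and 30000 in condition B. Above 1500 each library had to lie within 0.7 to 1.4 times the mean (a narrower window above 10000). Of 4971 rows with a condition A mean of 1500 to 10000, 37 gave no solution. On simulated means up to 10000, at least 99.1% were recovered with 0 wrong. Libraries are numbered by falling size factor and match no replicate number. Limma 3.58.1 (trend) in R 4.3.3 tested log2(normalised reads + 0.5) with Benjamini-Hochberg adjustment over rows with a mean of at least 50. Implied standard errors are the log2 ratio over the normal deviate of its p, an approximation. The members and lists were chosen with earlier results of these data known. In the text all members are accounted for, with full values for the proteolytic subunits and for the highest and lowest log2 ratio of each role, of the pathway lists those called and NFE2L1, NFE2L2, IRF1 and NLRC5. Some genes these lists and rules cover are not reported here. Other genes were picked after their values were seen.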

Additional observations from a re-analysis of the deposited data

How the results depend on the processing

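The count of members called in the authors' deposited table was 0 in both directions at an adjusted p of 0.01, 0.05 and 0.1 and when p was adjusted over rows with a mean of at least 50, where the smallest adjusted p was 0.137. Limma on the recovered reads gave 1 lower and 0 higher. The lower count was 1 with a pseudocount of 5, 0 with no filter on low values and 0 after rescaling to the median of ratios. With 1 library left out it ran from 0 to 6 lower and from 0 to 1 higher. The 6, without the first library of condition A, were POMP, PSMA1, PSMC6, PSMD10, PSMD14 and PSME1, and the 1 higher was PSMA8. Calls over all genes ran from 346 to 2142 in these fits. Leaving out both the third library of condition A and the first of condition B gave 8 higher and 4 lower. The log2 ratio changed sign with 1 library left out in 11 of 36 members. Each of the 216 values moved by less than the spread between libraries. Leaving out 1 of 3 libraries can hardly shift a mean further, so that outcome was fixed in advance. Role medians moved by less than that spread when recentred or limited to a mean of at least 50. Recentring only subtracts the median of all such rows, -0.002, and the limit leaves out only the second PSMA2 row. Neither could move the role medians far. The log2 ratio of PSMB10 to PSMB7, condition A minus B, was -0.02. No paired analysis was possible because the columns carry no replicate numbers. Of the smallest changes simulated, below 1.5-fold and with 1 spread for all genes, 16.4% were found. The 10 members with the highest means have no limma test.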
